A study of Mus musculus with 12 samples.

Results

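Smooth muscle contractile genes were examined in side population cells of mouse muscle. The group holds 10 genes of that role, Acta2, Myh11, Tagln, Cnn1, Mylk, Smtn, Lmod1, Myl9, Tpm1 and Tpm2, of 18194 genes named on the array. They were read through every probe set whose only gene symbol was one of these names, which gave 21 probe sets. A side population is the minor set of cells in a tissue digest that stains weakly with Hoechst because it pumps the dye out. The cells came from the extraocular muscles (EOM), which move the eye, and from the tibialis anterior (TA), a limb muscle of the lower leg. Total RNA of 6 EOM preparations and 6 TA preparations, each separated on its own, was amplified in 2 rounds and hybridized to a whole-genome Affymetrix mouse array, 1 preparation per array. No genotype, strain, age, sex or treatment is stated for either group in the labels used here, and arrays are named by the numbers in their titles (0, 1, 2, 3, 5 and 6). The number of animals behind a preparation is likewise not stated, so the p-values measure the spread between preparations.

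In smooth muscle, calcium and calmodulin switch on myosin light chain kinase, which phosphorylates the regulatory light chain and lets smooth muscle myosin pull on filaments of smooth muscle actin. Tropomyosin lies along those filaments, and calponin, transgelin, smoothelin and leiomodin bind them. In skeletal muscle this machinery as a whole is known from the smooth muscle cells of arterioles, and its actin also from some pericytes, the cells that wrap small vessels. Single members, the tropomyosins among them, are not restricted to smooth muscle. Much of the programme is known to be driven by serum response factor (SRF), which binds the CArG box, with its partner myocardin, and TEAD factors bind a second element, the MCAT motif.

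Upstream sequences of 8 of the 10 genes were read from RefSeq (GRCm38.p6): Acta2, Cnn1, Lmod1, Mylk, Myl9, Smtn, Tpm1 and Tpm2. Each is the 250 bases before the annotated start. The CArG box was searched as CC, then 6 bases that are each A or T, then GG, which reads alike on both strands. A CArG-like element has 1 base of that core that is neither A nor T, and the MCAT motif was searched as CATTCC on either strand. The sequences of Acta2, Myl9 and Tpm1 are shown because they hold the CArG and CArG-like matches and an MCAT match near the start, and capitals mark the matches. They lie at chr19:34255374-34255623 (minus strand), chr2:156775214-156775463 (plus strand) and chr9:67049214-67049463 (minus strand).
Acta2: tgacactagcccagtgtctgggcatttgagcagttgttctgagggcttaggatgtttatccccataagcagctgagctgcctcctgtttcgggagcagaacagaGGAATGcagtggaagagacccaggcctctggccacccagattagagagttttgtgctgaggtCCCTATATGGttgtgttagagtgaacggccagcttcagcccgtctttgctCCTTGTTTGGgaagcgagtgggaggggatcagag
Myl9: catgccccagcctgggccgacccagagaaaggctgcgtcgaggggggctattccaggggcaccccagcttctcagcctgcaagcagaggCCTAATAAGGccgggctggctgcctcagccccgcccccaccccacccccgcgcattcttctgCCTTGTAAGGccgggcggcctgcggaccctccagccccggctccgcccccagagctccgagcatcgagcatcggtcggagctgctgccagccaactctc
Tpm1: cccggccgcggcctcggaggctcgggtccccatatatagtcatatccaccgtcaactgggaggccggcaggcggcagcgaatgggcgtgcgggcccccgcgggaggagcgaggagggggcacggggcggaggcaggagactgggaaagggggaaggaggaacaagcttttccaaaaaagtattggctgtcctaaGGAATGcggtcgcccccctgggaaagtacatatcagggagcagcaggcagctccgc
In Acta2 the CArG-like elements began at -84 and -34, counted back from the start, and an MCAT match began at -146. Myl9 held a CArG box at -161 and a CArG-like element at -99, and Tpm1 an MCAT match at -56.

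A CArG box stood in 1 of the 8 upstream regions, that of Myl9, and in 1.63% of 32851 mouse upstream regions of the same length. With CArG-like elements counted too, it was 2 of 8, Acta2 and Myl9, against 9.98% of all. The MCAT motif stood in 5 of 8 (Acta2, Lmod1, Mylk, Smtn and Tpm1), against 14.7% of all. Cnn1 and Tpm2 held none of these letters in this window. The searches for MCAT and for CArG-like elements were added after the sequences had been read, and the matches are a description of sequence only.

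The arrays differed in quality within both groups. The median signal was between 32.2 and 87.2 on EOM arrays and between 31.1 and 69.5 on TA arrays, and EOM 1, TA 3 and TA 5 stood apart with the highest medians. The ratio of 3' to 5' signal of beta-actin, a measure of how far amplified RNA was shortened, ranged from 8.92 to 104.2 in EOM and from 5.27 to 165.3 in TA, and EOM 1 and TA 3 and TA 5 were again the highest of their groups. The same ratio for Gapdh ranged from 9.88 to 24.46 in EOM and from 4.92 to 34.49 in TA. It did not set the same arrays apart. EOM 1 was the lowest EOM array, TA 5 the highest TA array, and TA 3 was at 17.33, below TA 0 and TA 1. None of these measures differed between the groups past the threshold (exact permutation test, two-sided, adjusted p = 0.71 for each, n = 6 per group). Abcg2, the pump known for clearing Hoechst from such cells, had signals of 100.3, 716.0 and 1014.3 in EOM (lowest, median, highest) and of 1705.1, 2723.6 and 3460.7 in TA. Its difference, EOM minus TA, was -2.23 ± 0.42 on the log2 scale (SE, limma adjusted p = 0.0020). An array signal has no count behind it, and the precision of each value is set by the 6 arrays per group.

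Smooth muscle contractile genes were lower in EOM. Differences are EOM minus TA on the scale of log2(signal + 16), so a negative value is lower in EOM. Of the 21 probe sets, 15 of 9 genes were bright enough to be tested, and 11 of these were lower in EOM, 0 were higher and 4 did not pass (limma, adjusted p under 0.05 over 27023 probe sets). Each of the 9 genes had at least 1 lower probe set. Among all tested probe sets 5.02% were lower and 3.25% higher. In 9 of the 15 every EOM array lay below every TA array, as it did in 3.55% of all tested probe sets. The median log2 difference of the 15 was -2.21, beside -0.03 over all tested probe sets. The level filter did not depend on TA alone, since the lowest EOM mean among the 15 was 38.1, above the cut at a 12-array mean of 33.9. When each array was centred on its median signal, 6 probe sets of 5 genes still passed. The share of all probe sets called depended on EOM 1, since without it 2239 were lower rather than 1357, while 11 of the 15 were lower without it as well.

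**Figure D1:**
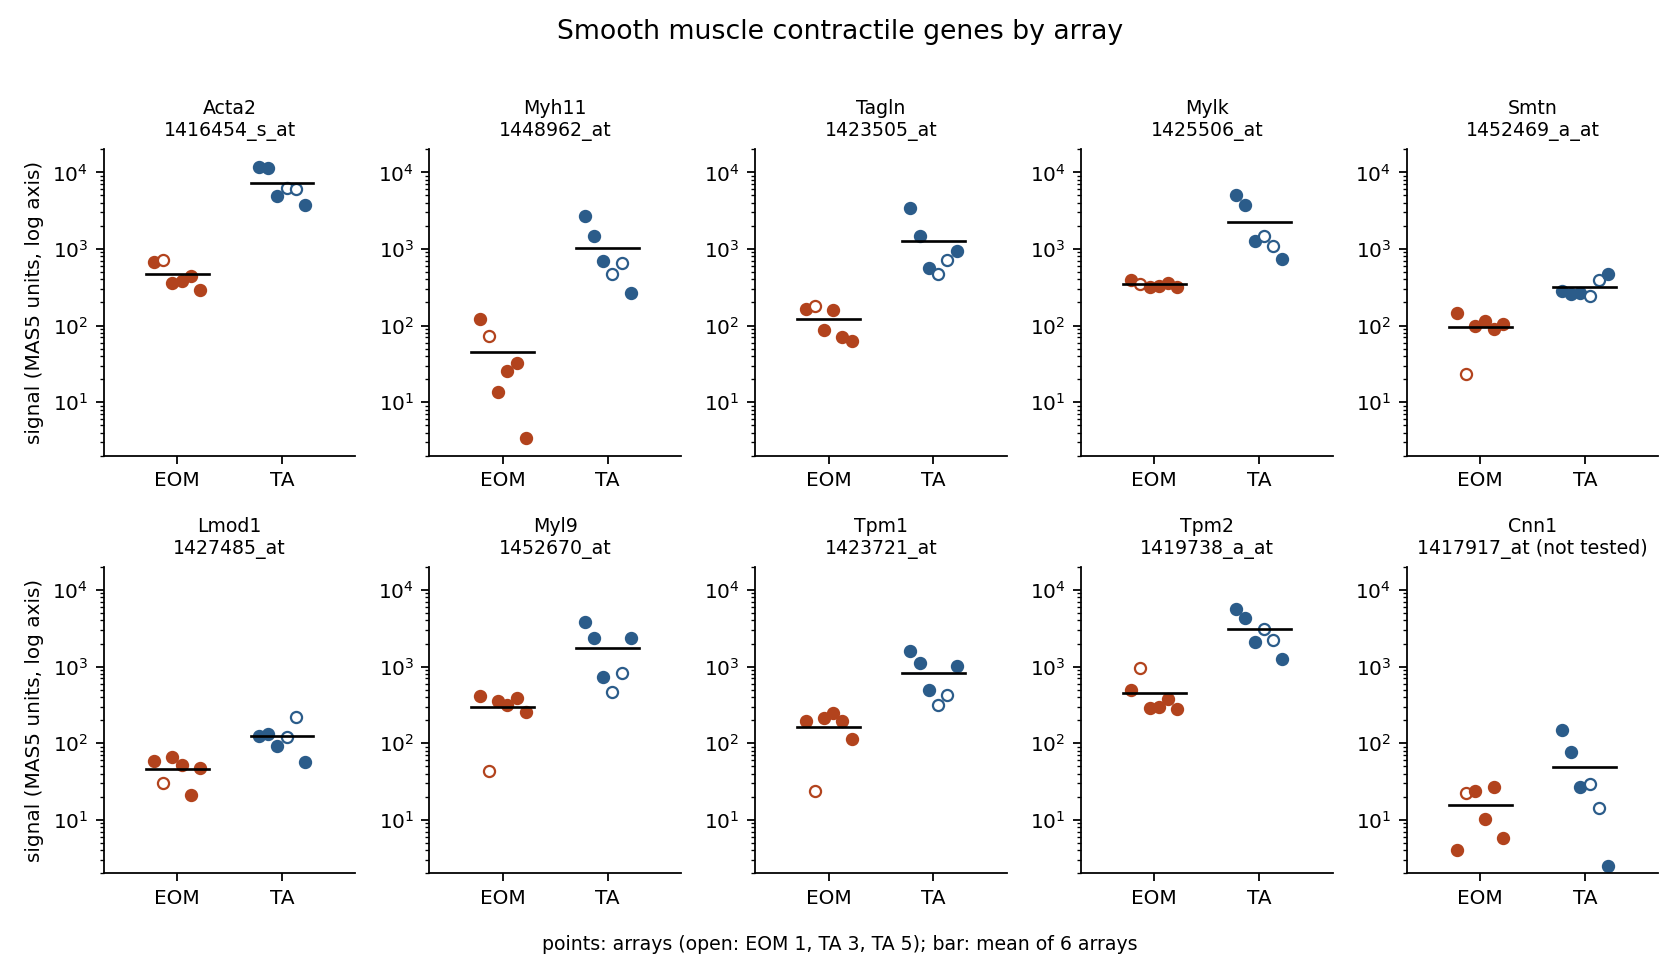
Signal of the brightest tested probe set of each of 9 genes, and of the untested Cnn1 probe set, on a log axis in MAS5 units. Each point is 1 array, EOM on the left and TA on the right of each panel, open points are EOM 1, TA 3 and TA 5, and bars are means of 6 arrays; in 8 of the 10 panels all EOM points lie below all TA points, and in Lmod1 and Cnn1 they overlap.

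Acta2, the actin of smooth muscle filaments, was read by 3 probe sets. The brightest (1416454_s_at) had signals of 292.5, 409.6 and 712.2 in EOM (lowest, median, highest), against 3787.6, 6205.9 and 11657.4 in TA. No EOM array came near the TA range, and the lowest TA array was 5.32 times the highest EOM array. The log2 difference was -3.85 ± 0.32 (SE, limma adjusted p = 4.90e-07). This probe set carries the suffix that marks probes able to bind more than 1 transcript, and actins are close in sequence, though the platform table gives Acta2 alone for it. Its other 2 probe sets (1444105_at and 1456658_at) lay under the level filter, with 0.7 to 102.0 and 1.0 to 24.4 in EOM and 4.0 to 57.6 and 6.1 to 24.4 in TA, and the groups overlapped in both.

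Myh11, the smooth muscle myosin heavy chain and the motor of contraction, had signals (1448962_at) of 3.4, 28.8 and 120.0 in EOM and 269.0, 677.5 and 2668.8 in TA. The groups did not overlap, although the TA arrays themselves spanned 9.92-fold, from TA 6 up to TA 0. Its log2 difference was -4.03 ± 0.52 (SE, limma adjusted p = 4.45e-05), a 16.4-fold lower level on that scale. EOM signals this low are near the added constant of 16, so the fold is understated. The second Myh11 probe set (1418122_at), from the same source sequence, was not tested, at 1.8 to 26.2 in EOM and 9.7 to 89.8 in TA, where the groups overlapped.

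Mylk, the kinase that starts contraction, had 318 to 389 in EOM and 744 to 5031 in TA by its brightest probe set (1425506_at), with medians of 341.1 in EOM and 1380.0 in TA. EOM arrays spanned only 1.23-fold, the narrowest range of the tested member probe sets in that group, while TA arrays spanned 6.76-fold with TA 0 and TA 1 highest. The groups did not overlap, and the log2 difference was -2.31 ± 0.38 (SE, limma adjusted p = 0.000557). A second probe set (1425505_at) had 52.4, 145.9 and 246.6 in EOM and 206.4, 491.4 and 1656.7 in TA, and there TA 3 and TA 5 lay inside the EOM range. Its log2 difference was -1.75 ± 0.46 (SE, limma adjusted p = 0.0207), a call that was lost without EOM 2 (adjusted p = 0.0615), EOM 6 (0.0502) or TA 1 (0.0572), and with arrays centred on the median (-1.66, adjusted p = 0.104). The third (1425504_at), at 3.0 to 30.9 in EOM and 3.7 to 63.6 in TA, was not tested. All 3 come from 1 source sequence.

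Myl9, the regulatory light chain that this kinase phosphorylates in smooth muscle, had signals (1452670_at) of 43.0, 332.5 and 414.6 in EOM and 470.7, 1575.5 and 3801.6 in TA. The groups did not overlap, but the lowest TA array, TA 3, was only 1.14 times the highest EOM array, EOM 0. The log2 difference was -2.37 ± 0.53 (SE, limma adjusted p = 0.00739). EOM 1 was far below the other EOM arrays, and without it the difference was -1.93 (adjusted p = 0.00296). With arrays centred on the median the difference was -2.27 and did not pass (adjusted p = 0.0884).

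Tagln encodes transgelin, an actin-binding protein and an early mark of smooth muscle. Its signals (1423505_at) were 62.7, 123.6 and 179.3 in EOM and 473.4, 829.8 and 3478.9 in TA, with no overlap and TA 0 well above the other TA arrays. The log2 difference was -2.98 ± 0.42 (SE, limma adjusted p = 0.000114). Smtn, smoothelin, a cytoskeletal protein of contractile smooth muscle (1452469_a_at), had 23.6, 103.0 and 146.0 in EOM and 245.1, 270.8 and 469.1 in TA. Its groups did not overlap, the TA arrays were close together (1.91-fold), and EOM 1 was the low array. Its log2 difference was -1.64 ± 0.32 (SE, limma adjusted p = 0.00261), and -1.36 without EOM 1 (adjusted p = 0.000416), while with arrays centred on the median it was -1.55 and did not pass (adjusted p = 0.0672).

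Lmod1, leiomodin, which nucleates actin filaments in smooth muscle, had the smallest difference that passed. Its signals (1427485_at) were 21.0, 49.6 and 66.2 in EOM and 56.4, 121.4 and 221.1 in TA. TA 6 lay inside the EOM range and the other 5 TA arrays above it. The log2 difference was -1.14 ± 0.32 (SE, limma adjusted p = 0.0326). This call was the least firm of the 11: it passed in 14 of 30 alternative fits and was lost without any one of EOM 3, EOM 5, EOM 6, TA 0, TA 1 or TA 5 (adjusted p of 0.0574 to 0.0814). Cnn1, calponin, an actin-binding protein of differentiated smooth muscle, could not be tested. Its single probe set (1417917_at) read 4.0 to 27.1 in EOM and 2.5 to 148.5 in TA, where TA 0, TA 1 and TA 3 stood above every EOM array and TA 6 below them all.

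**Figure D2:**
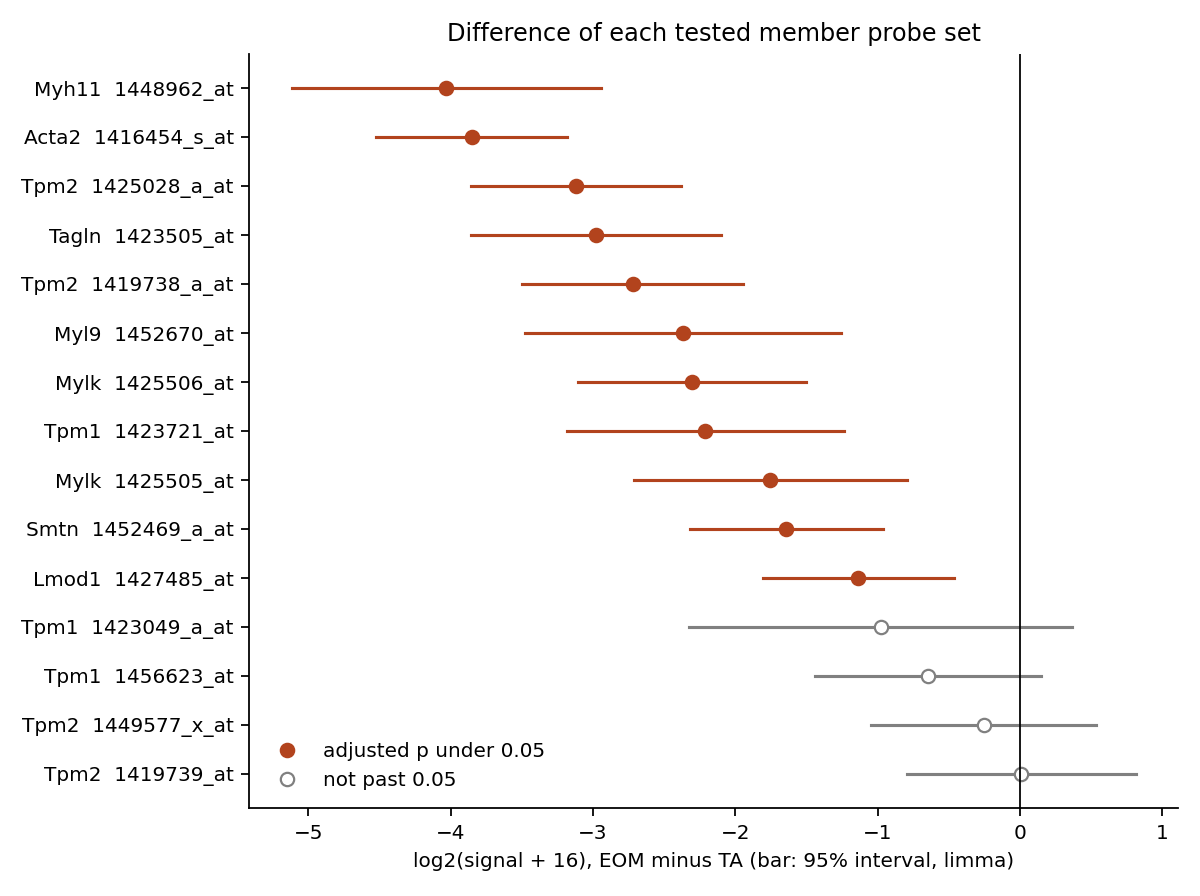
Log2 difference, EOM minus TA, of the 15 tested probe sets, with 95% intervals from limma; filled points passed an adjusted p of 0.05 and open points did not. The 11 filled points run from Myh11 at -4.03 to Lmod1 at -1.14, and the 4 open points are probe sets of Tpm1 and Tpm2.

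Among the 6 untested probe sets the groups overlapped in every case, and 0 passed in a fit without the level filter, where the smallest adjusted p was 0.130. The sixth of these belongs to Tpm1 (1447713_at), at 1.0 to 50.1 in EOM and 0.6 to 34.1 in TA.

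The tropomyosins gave different answers by probe set, which for Tpm2 was known when these genes were chosen and is therefore given as a description. Tpm2, beta-tropomyosin, was read by 4 probe sets, all tested. The first (1419738_a_at) had signals of 279.3, 337.0 and 962.2 in EOM and 1263.0, 2657.9 and 5620.0 in TA, and the second (1425028_a_at) 64.4, 89.3 and 175.8 in EOM and 539.2, 825.5 and 2405.5 in TA. Neither overlapped between the groups. Their log2 differences were -2.72 ± 0.37 (SE, limma adjusted p = 8.04e-05) and -3.12 ± 0.35 (SE, limma adjusted p = 1.23e-05). Both carry the suffix given to probe sets that bind several transcript variants of 1 gene.

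The other Tpm2 probe sets did not differ detectably. One (1419739_at) had 20.4, 35.8 and 140.2 in EOM and 28.7, 37.9 and 85.1 in TA, a log2 difference of 0.01 with a 95% interval of -0.80 to 0.82 (limma adjusted p = 0.994). The other (1449577_x_at) had 13.9, 31.4 and 90.8 in EOM and 25.8, 39.6 and 85.2 in TA, a log2 difference of -0.25 with an interval of -1.04 to 0.53 (limma adjusted p = 0.814). The groups overlapped throughout, and EOM 1 and TA 5 were the highest arrays of their groups in both. Their 12-array means, 47.1 and 42.3, were not far above the level filter. The sign of the first changed with the setting: without EOM 1 it was -0.28.

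For each of the 4 pairs that set a lower Tpm2 probe set against one of the others, the log2 ratio within each array differed between the groups by -2.47 to -3.13, EOM minus TA. The others lie near the level filter, so these ratios are close to the differences of the 2 brighter probe sets themselves, whose own ratio differed by 0.40. One of the lower probe sets and both others come from the same source sequence in the platform table, so a shared origin did not go with a shared result.

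Tpm1, alpha-tropomyosin, had 3 tested probe sets. The brightest (1423721_at) read 23.9, 193.8 and 248.3 in EOM and 312.1, 755.2 and 1596.4 in TA, without overlap and with EOM 1 again the low array. Its log2 difference was -2.21 ± 0.46 (SE, limma adjusted p = 0.00446), and -1.82 without EOM 1 (adjusted p = 0.00127). With arrays centred on the median it was -2.12 and did not pass (adjusted p = 0.0774).

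A second Tpm1 probe set (1423049_a_at) read 23.4, 67.9 and 113.5 in EOM and 15.4, 235.9 and 409.1 in TA, and the groups overlapped because TA 3 and TA 5, at 15.4 and 16.7, lay below every EOM array. Its difference of -0.98 ± 0.64 did not pass (SE, limma adjusted p = 0.459). TA 3 and TA 5 are arrays with high beta-actin 3' to 5' ratios, while their Gapdh ratios were 17.33 and 34.49. With the beta-actin ratio as a covariate the difference was -1.56 (adjusted p = 0.0118), and without EOM 1, TA 3 and TA 5 it was -1.88 (adjusted p = 0.00198). This probe set passed in 3 of 30 alternative fits, and the part of array quality in its values was not tested. The third (1456623_at) read 9.7, 39.1 and 63.3 in EOM and 23.0, 67.0 and 136.3 in TA and did not pass (-0.64 ± 0.38, SE, limma adjusted p = 0.389). Between the brightest and the second Tpm1 probe set the within-array ratio differed by -1.24 between the groups and did not pass (exact permutation p = 0.0346, adjusted p = 0.0693 over the 10 pairs of tested probe sets within Mylk, Tpm1 and Tpm2, two-sided, n = 6 per group). It passed with a constant of 64 (-1.07, exact permutation adjusted p = 0.00866), without EOM 5 (-1.47, 0.0217) and without TA 6 (-1.43, 0.0433), but was -0.40 without EOM 1, TA 3 and TA 5 (adjusted p = 0.307).

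**Figure D3:**
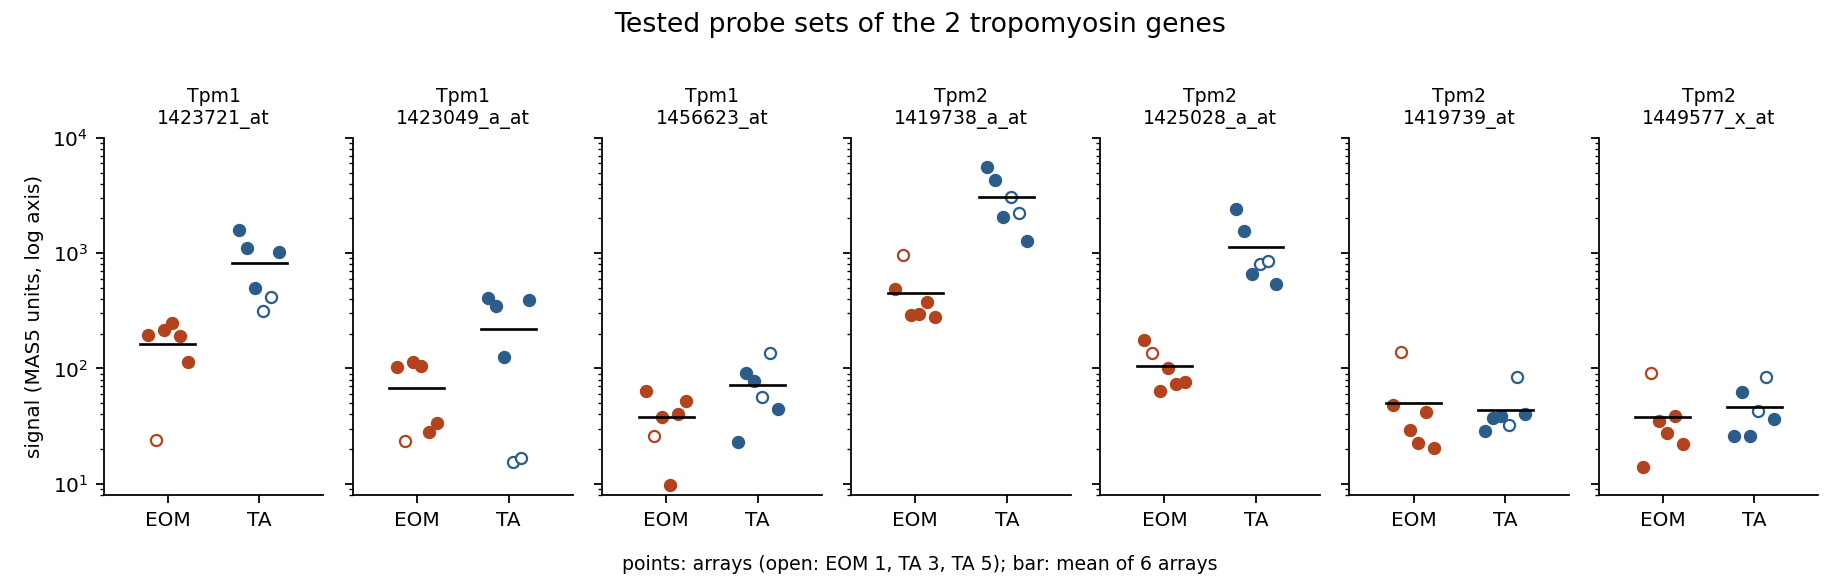
Signals of the 7 tested tropomyosin probe sets on a log axis in MAS5 units, EOM left and TA right in each panel; points are arrays, open for EOM 1, TA 3 and TA 5, and bars are means of 6 arrays. EOM lies wholly below TA in 1 Tpm1 and 2 Tpm2 panels, while in the last 2 Tpm2 panels the groups cover the same range, and in the second Tpm1 panel the open TA points lie at the bottom.

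The genes did not all differ by the same amount. In a comparison of all 36 pairs of the 9 tested genes, added after the values had been seen, the within-array log2 difference between 2 genes was set against the muscle (exact permutation test, two-sided, n = 6 per group, adjusted over the 36 pairs). Acta2 fell further than 4 genes: its log2 difference minus theirs was -1.55 for Mylk, -2.21 for Smtn, -2.72 for Lmod1 and -1.13 for Tpm2 (adjusted p of 0.0195 to 0.0390). Myh11 fell further than Mylk (-1.73), Lmod1 (-2.90) and Tpm2 (-1.31, adjusted p of 0.0195 to 0.0334), and Tagln further than Lmod1 (-1.84, adjusted p = 0.0334). Acta2 and Myh11 did not differ past the threshold (0.18, adjusted p = 0.652). Myh11, Lmod1 and the lowest Smtn signal in EOM are near the added constant, which compresses their differences. The difference of Myh11 was -4.80 with a constant of 1 and -3.08 with 64, and that of Acta2 -3.90 and -3.72. Which of these genes fell further thus depended on the constant. Of the pairs, 6 passed with a constant of 1 and 12 with 64. The number of such pairs also depended on single arrays, at 8 with all arrays and 19 without EOM 1, and 4 to 10 without any one of the others.

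Within TA the genes varied widely. The summed signal of the 9 genes was 1486 to 2665 on EOM arrays and 10920 to 34257 on TA arrays, so the groups did not overlap. TA 0 and TA 1 were highest at 34257 and 26292, and the other 4 TA arrays lay between 10920 and 12909. TA 0 was the highest TA array in 9 of the 11 lower probe sets, and TA 6 the lowest in 6 and TA 3 in 4. TA 6 was lowest in this sum, which the brightest probe sets carry, but not in the mean log2 signal of the 11 lower probe sets, where TA 3 and TA 2 (9.32 and 9.41) lay below it (9.51). It was the highest TA array for Smtn. The endothelial and pericyte sums were both highest on TA 6, at 44371 and 42352.

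**Figure D4:**
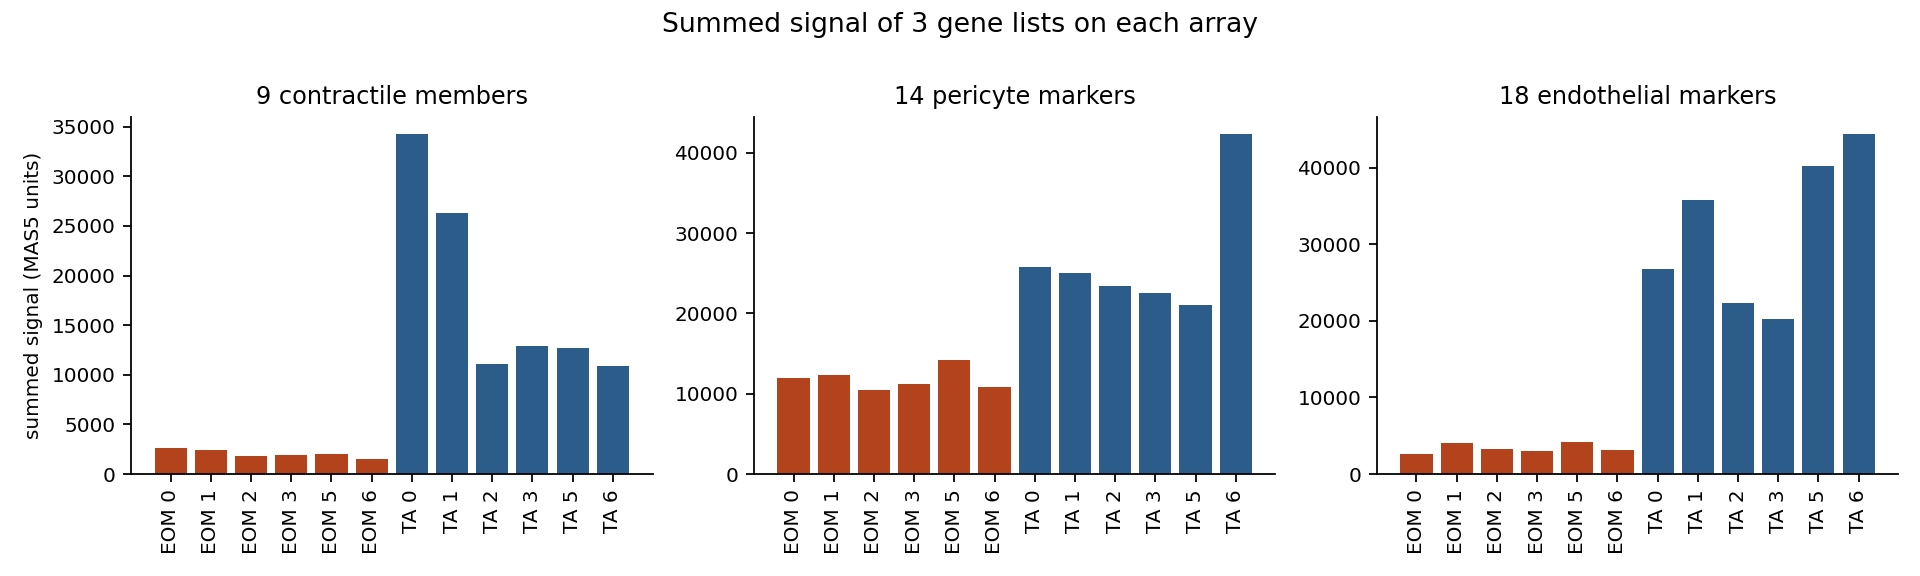
Summed signal in MAS5 units on each array for the 9 tested contractile genes, 14 pericyte markers and 18 endothelial markers, 1 probe set per gene, EOM arrays on the left and TA arrays on the right of each panel. Contractile genes peak on TA 0 and TA 1, and both marker lists peak on TA 6.

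Genes of the surrounding programme were read from lists, 1 probe set per gene. Over all 13093 genes tested, 6.81% were lower and 4.08% higher in EOM, with a median log2 difference of -0.04. The 9 contractile genes had a median of -2.37 on this basis. Of 22 other genes of the smooth muscle cytoskeleton 9 were lower and 0 higher (median -0.83). They were led by Pgm5, aciculin of adhesion plaques, with 21.9 ± 16.2 in EOM, against 368.1 ± 166.3 in TA (SD and n = 6), and a log2 difference of -3.36 (limma adjusted p = 6.80e-06). Susd5 was at -3.04, and 1 of its 2 tested probe sets was lower. The EOM means of Pgm5 and Susd5 lay under the level filter's cut, so both were tested only because of TA, and their differences depend on the constant. The integrin alpha subunits Itga8 and Itga7 were at -2.53 and -2.25, also past the threshold. Without EOM 1, TA 3 and TA 5 this list gave 16 lower and 1 higher, and with 1 array left out 5 to 10 lower (5 without EOM 2, EOM 3, EOM 6, TA 0 or TA 1) and 0 to 2 higher. Calls over all probe sets rose too, from 1357 lower and 877 higher with all arrays. They were 2428 and 2259 without EOM 1, TA 3 and TA 5, and 2239 and 2135 without EOM 1. Counts of the other lists in those fits stand beside the same rise.

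Of 14 paralogues and related genes that are not restricted to smooth muscle 3 were lower, 1 was higher and 10 did not pass (median -0.53). Without EOM 1, TA 3 and TA 5 it was 5 lower and 1 higher. Myh9, a non-muscle myosin heavy chain, fell to 840.1 to 7436.3 in EOM, against 7475.7 to 72896.4 in TA (log2 difference -3.44, limma adjusted p = 0.000719), and 3 of its 5 tested probe sets were lower. Myh10, another non-muscle myosin heavy chain, was higher in EOM, with 1276.4 to 2496.8 in EOM and 266.0 to 874.1 in TA (1.60, limma adjusted p = 0.00139). Lmo7, an actin-associated adaptor, was at -1.46 and the calponin Cnn2 at -1.14, both lower. The cytoplasmic actins Actb (-0.58) and Actg1 (-0.06), the transgelin Tagln2 (-0.50), Cnn3 (-0.56), the tropomyosins Tpm3 (0.34) and Tpm4 (-0.64) and the light chain Myl6 (-0.42) did not pass (limma adjusted p of 0.186 to 0.944).

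Of 10 tested genes of striated muscle 1 was lower, skeletal actin Acta1, at 5.5 to 84.6 in EOM and 59.9 to 398.6 in TA (-1.66, limma adjusted p = 0.0286), with an EOM mean under the level filter's cut, and 15 further genes on that list lay under the level filter (list median -0.53). The Acta1 call was lost without any one of EOM 0, EOM 3, EOM 5, EOM 6, TA 2, TA 5 or TA 6, and 2 genes of the list were lower without EOM 1. Cardiac actin Actc1 lay under the level filter and was not tested, at 1.9 to 78.4 in EOM and 3.6 to 59.9 in TA. The same held for the enteric smooth muscle actin Actg2 of the cytoskeleton list, at 1.1 to 23.8 in EOM and 1.4 to 54.8 in TA.

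Of 17 regulators of smooth muscle genes 3 were lower and 0 higher (median -0.40). Myocd, the SRF partner myocardin, had 8.3, 47.8 and 82.4 in EOM and 17.4, 131.5 and 312.5 in TA, with overlap, and did not pass (-1.13 ± 0.46, SE, limma adjusted p = 0.169). Srf itself had 639.5, 876.4 and 1390.0 in EOM and 399.8, 753.6 and 1111.6 in TA and did not pass (0.30 ± 0.27, SE, limma adjusted p = 0.641). The SRF coactivator Mrtfb was at -1.30, and the transcription factors Mef2c and Meox1 at -2.20 and -1.14, all lower. For Mrtfb 1 of 2 tested probe sets was lower, and the other was at -0.41. Without EOM 1, TA 3 and TA 5 this list gave 5 lower and 2 higher, and without EOM 1 alone 4 lower and 2 higher.

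Of 22 genes that signal to contraction 6 were lower and 0 higher (median -0.61). The chloride channel Ano1 had 22.7 to 121.7 in EOM and 603.5 to 1469.3 in TA (-3.97, limma adjusted p = 5.40e-07). Also lower were Rgs4, a regulator of G-protein signalling, at -3.09, the endothelin receptor Ednrb at -3.06 and Gucy1a1, a subunit of the nitric oxide receptor, at -3.01. By tested probe sets, 1 of 2 was lower for Ano1, 2 of 2 for Rgs4, 1 of 3 for Ednrb and 2 of 3 for Gucy1a1. Their smallest differences were -1.005 for Ano1, -2.06 for Rgs4, -0.61 for Ednrb and -0.38 for Gucy1a1.

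**Figure D5:**
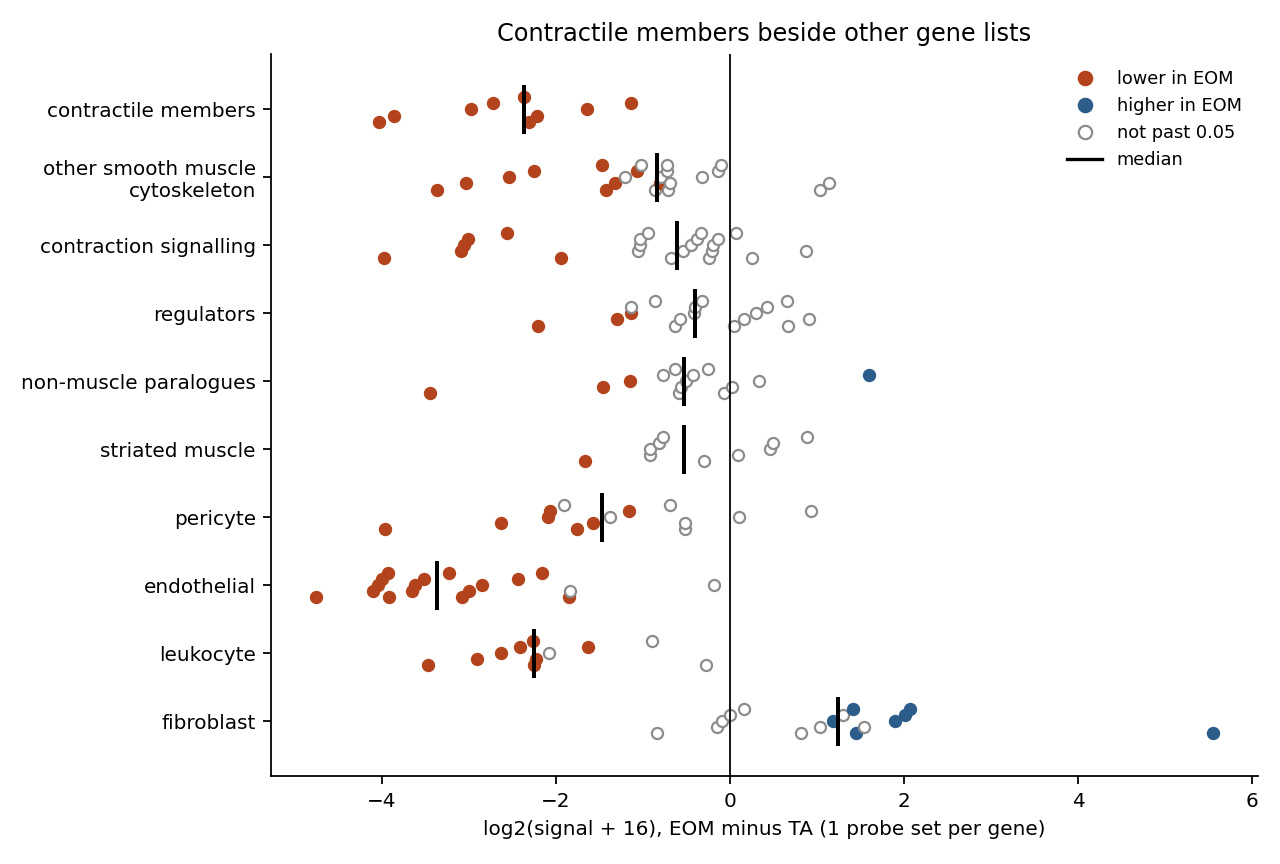
Log2 difference, EOM minus TA, of each tested gene in 10 lists; each point is 1 gene, filled where limma's adjusted p passed 0.05, and black bars are list medians. The contractile genes lie between -4.03 and -1.14 with a median of -2.37, endothelial markers have a median of -3.37 and fibroblast markers one of 1.24.

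Markers of other cell types differed between the same arrays. Of 14 pericyte markers 7 were lower and 0 higher (median -1.47), with summed signals of 10425 to 14247 in EOM and 20995 to 42352 in TA. Rgs5, Notch3, Kcnj8 and Mcam led them at -3.96, -2.63, -2.09 and -2.06. The EOM mean of Mcam lay under the level filter's cut, so it was tested only because of TA, and its groups overlapped. Of 18 endothelial markers 16 were lower and 0 higher (median -3.37), with sums of 2570 to 4129 in EOM and 20221 to 44371 in TA, led by Egfl7 (-4.75), Cd93 (-4.10), Plvap (-4.04) and Vwf (-4.00). For Cd93 2 of 5 tested probe sets were lower. Tie1, counted among the 16, also had an EOM mean under the cut. Of 11 leukocyte markers 8 were lower and 0 higher (median -2.24), with sums of 485.4 to 4709 in EOM and 4753 to 13891 in TA, led by Ctss (-3.47), Tyrobp (-2.90), Ptprc (-2.63) and Cd53 (-2.42). Fcer1g, counted among the 8, had an EOM mean under the cut as well. Of 16 fibroblast markers 0 were lower and 7 higher (median 1.24), with sums of 167365 to 380884 in EOM and 102437 to 224884 in TA, led by Pi16 (5.55), Dpep1 (2.07), Cd248 (2.02) and Dpt (1.90), and 4 to 10 were higher with 1 array left out (4 without EOM 0, EOM 2, EOM 3 or TA 5, 10 without EOM 1). Of 7 satellite cell markers 1, Itga7, was lower (median -0.58, sums of 639.4 to 1629 in EOM and 813.1 to 1971 in TA), with 2 lower without EOM 1 and 3 lower without EOM 1, TA 3 and TA 5. The other tested satellite cell markers did not pass with all arrays. The satellite cell transcription factors Pax7 and Myf5 lay under the level filter and were not tested. Pax7 had 2.2 to 11.0 in EOM and 19.8 to 108.2 in TA, without overlap. Myf5 had 0.4 to 15.6 in EOM and 2.2 to 67.2 in TA, with overlap. Of 3 Schwann and red cell markers 0 passed (median -0.29, sums of 128.8 to 471.7 in EOM and 150.0 to 383.6 in TA). No tested marker was listed at 0 on any array. Detection calls were not used, so a signal above 0 does not show that a marker was detected. The part of these markers in the lower contractile genes was not tested, and in bulk arrays fewer cells of a type and less RNA per cell cannot be told apart.

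The genes outside the contractile group whose profiles over the 12 arrays lay closest to those of Acta2 and Myh11 were found among 13084 other genes by the root-mean-square distance between log2 profiles, each centred on its own mean, where smaller means more alike. For Acta2 they were the homeobox gene Hoxa9 (0.47), P-selectin Selp (0.51), the myosin chaperone Unc45b (0.54), the endothelial diaphragm protein Plvap (0.59) and the laminin receptor subunit Itga6 (0.61). For Myh11 they were Susd5 (0.93), Hoxa9 (0.93), Selp (0.94), the calcium-binding protein Tesc (0.95) and Unc45b (0.99). Within the group Acta2 and Myh11 lay 0.54 from each other, nearer than Plvap and Itga6 to Acta2. Tagln (0.84) and Tpm2 (0.87) also lay nearer to Myh11 than any of those 5 genes. Tpm2 and Tagln lay 0.62 and 0.70 from Acta2, whereas Smtn lay 1.42 away and Lmod1 further. These distances describe 12 arrays that share the difference between the muscles.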

How the data were processed

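Total RNA of 12 side population preparations, 6 EOM and 6 TA, went through 2 rounds of amplification and onto 1 array each after biotin labelling, per the labels' protocols. Per the submitters' processing notes and labels, the authors summarized each probe set with MAS5. The authors' deposited intensities are linear; on each array their mean, trimmed by 2% at both ends, was 150.0, so whole arrays had been scaled to 1 level. An array with little target then has its background raised with its signal. Detection calls were not used here, and 0 columns were left unused. No 2 arrays held identical values. Groups and numbers came from the sample titles.

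Genes were named through the platform annotation (34958 of 45101 probe sets with 1 symbol). The array's genome build is not given in the sources used here, and coordinates are those of RefSeq upstream regions alone. Signals were analysed as log2(signal + 16), a scale that understates folds of low signals. Neither the 64 controls nor the dimmest 40% by 12-array mean were tested. EOM was compared with TA by limma 3.58.1 in R 4.3.3 (eBayes with intensity trend, two-sided, Benjamini-Hochberg over 27023 probe sets, threshold 0.05), a fit tested on simulated data. Single ratios were tested by exact permutation over 924 assignments in Python 3.11.15. A gene on a list was read by its tested probe set with the highest mean.

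The contractile genes, the 12 lists and the tests were chosen with earlier results of these data known. Named genes were every member probe set, up to 4 genes with the largest difference past the threshold per list, the closest paralogues, Myocd and Srf, and the 5 genes nearest to Acta2 and to Myh11. Abcg2, Pax7, Myf5, Tie1 and Fcer1g were named outside this rule. Alternatives were added constants of 1 and 64, quantile and median scaling, no filter or 60%, no trend, weighted arrays, a block on replicate number, a covariate for beta-actin 3' to 5' ratio, averaging over probe sets of 1 gene, and arrays left out.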

Additional observations from a re-analysis of the deposited data

Results flagged for a closer look

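Among 42 sets of 6 arrays (21 probe sets in 2 groups), 7 held an array far from the rest by Dixon's ratio of gap to range past its 95% critical value, where chance alone flags about 1 in 20 for normally distributed values. The signals were taken on their linear scale, all 7 arrays were high, and how often chance flags such signals was not tested. On the scale of log2(signal + 16), tried after the data were seen, 4 were past it, 1 high and 3 low. The low ones were EOM 1 for Smtn and for Myl9 and TA 1 for an untested Acta2 probe set (1456658_at). The high one was TA 5 for a Tpm2 probe set (1419739_at). On the linear scale EOM 1 was the high array in 5 of the 7: 102.0 for an untested Acta2 probe set (others 0.7 to 24.9), 50.1 for an untested Tpm1 probe set (others 1.0 to 18.8), 962.2 for a Tpm2 probe set that was lower in EOM (others 279.3 to 493.4), and 140.2 and 90.8 for the 2 Tpm2 probe sets that did not differ (others 20.4 to 48.6 and 13.9 to 39.0). TA 5 was high at 85.1 for one of the latter (others 28.7 to 40.5), and TA 0 at 3478.9 for Tagln (others 473.4 to 1472.9). EOM 1 and TA 5 are also arrays with a high median signal, 87.2 and 63.1, and TA 0 is not, at 35.1. The part of array quality in these values was not tested.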

How the results depend on the processing

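In 29 of 30 alternatives 9 to 12 member probe sets were lower in EOM, and in all 30 none was higher. Centring each array on its median took the count to 6, and the genes with a lower probe set to 5, and the cause was not tested. Leaving out arrays or replicate numbers gave 9 to 11 lower probe sets and 8 to 9 genes. Acta2, Myh11, Tagln, the first Mylk and both lower Tpm2 probe sets passed in 30 of 30 alternatives, Smtn, Myl9 and the first Tpm1 probe set in 29, the second Mylk in 23 and Lmod1 in 14. The second Tpm1 probe set passed in 3. The third Tpm1 and 2 Tpm2 probe sets were not tested under the 60% filter.

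Over all probe sets 2234 passed, 1357 lower and 877 higher. Median centring gave 1468 (900 lower, 568 higher), array weights 5535 (2897 and 2638), and leaving out EOM 1, TA 3 and TA 5 4687 (2428 and 2259). With arrays or replicate numbers left out, 1376 to 4374 passed (880 to 2239 lower, 492 to 2135 higher), the most without EOM 1.

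The Tpm2 probe set at 0.01 turned to -0.034 with a constant of 1, -0.17 with array weights and -0.13 without the 3 arrays, and ranged from -0.30 to 0.17 with arrays left out; it never passed. The ratio of the second to the third Tpm1 probe set ranged from -0.95 to 0.18 with 1 array left out and was -1.50 without the 3 arrays; it never passed. Pairs of genes that differed unequally numbered 4 to 19 with 1 array left out and 18 without the 3 arrays, and 6 and 12 with constants of 1 and 64, alternatives added after the data were seen.

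The replicate block was fitted as an alternative: 10 member probe sets were lower with it fixed and 11 with it random (1656 and 1949 of all probe sets). It ended the Lmod1 call when fixed (adjusted p = 0.101) and no other member call. The labels used here do not say whether same-numbered samples share animals or days. Their deviations from the group means correlated at -0.325 to 0.162, and 1 of 6 numbers matched itself best. Arrays also differed in quality, so these values do not settle whether the samples were paired.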
